A study of Mus musculus with 6 samples.

Results

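The transcription factors described here were the core of the stem cell complex built around Tal1 (also called Scl) and its partners. They comprised Tal1, Lyl1, Lmo2, Gata2, Runx1, Fli1 and Erg, known together as the heptad, and the partners Ldb1, Tcf3 and Cbfa2t3. They were chosen by name. A probe set, the group of short probes on the array that together report 1 transcript, was taken where its only gene symbol in the platform's annotation was 1 of these names, whatever its values. All 10 genes were found, among 18193 genes with such a probe set, and together they had 23 probe sets. Expression was measured in haematopoietic stem cells (HSCs) of SCL-tTA H2B-GFP mice. In these mice the tTA-S2 transactivator is expressed from the endogenous scl (Tal1) locus and switches on a histone H2B-GFP fusion, and doxycycline switches it off, so that the label is then diluted by division. All samples came from bone marrow after 170 days of doxycycline and from the same gate, which was lineage-negative, Sca1+, cKit+, CD150+, CD48-negative and CD34-negative. The 3 LRC (label-retaining) samples were GFP+, and the 3 non-LRC samples were GFP-negative. The locus of 1 of the factors thus drove the label by which the cells were sorted. GFP-negative cells may have lost the label or never carried it, which cannot be told apart here. The number of mice per sample and their age are not given in the sources used here, so the p-values measure the spread between these samples.

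Tal1 is a basic helix-loop-helix (bHLH) factor that is required for blood stem cells to form. It binds DNA at E-box sequences as a dimer with an E protein such as the product of Tcf3. The LIM-domain protein Lmo2 and the self-associating adaptor Ldb1 join this dimer to a GATA factor, Gata2 in stem and progenitor cells. Runx1 and the ETS factors Fli1 and Erg bind many of the same regulatory regions in blood progenitors, and members of the group bind regulatory regions of each other's genes. Cbfa2t3 (Eto2) is a corepressor that is recruited to Tal1 complexes.

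Because the factors recognise short DNA motifs and are known to act on each other's genes, the windows around their own transcription starts were read for those motifs. RefSeq (GRCm38.p6) windows of 300 bases, from 250 before to 50 after a start, were found for 8 of the 10 genes, with 16 windows in all. The windows of 4 genes are shown, 1 start each. Tal1 is shown because its locus drove the label and Lyl1 because it is the paralogue of Tal1. Tcf3 and Cbfa2t3 are shown because only they had probe sets whose groups did not overlap, 1 of 3 for Tcf3 and 2 of 4 for Cbfa2t3. Capitals mark E-boxes (CANNTG) and GATA motifs (GATA on either strand).
Tal1, chr4:115056176-115056475, plus strand: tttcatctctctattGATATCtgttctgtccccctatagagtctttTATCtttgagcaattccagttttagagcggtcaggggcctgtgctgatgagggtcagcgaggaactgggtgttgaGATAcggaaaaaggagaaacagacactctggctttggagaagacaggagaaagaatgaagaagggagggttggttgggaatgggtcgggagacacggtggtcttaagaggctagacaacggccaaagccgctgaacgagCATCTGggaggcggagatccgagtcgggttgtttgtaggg
Lyl1, chr8:84701207-84701506, plus strand: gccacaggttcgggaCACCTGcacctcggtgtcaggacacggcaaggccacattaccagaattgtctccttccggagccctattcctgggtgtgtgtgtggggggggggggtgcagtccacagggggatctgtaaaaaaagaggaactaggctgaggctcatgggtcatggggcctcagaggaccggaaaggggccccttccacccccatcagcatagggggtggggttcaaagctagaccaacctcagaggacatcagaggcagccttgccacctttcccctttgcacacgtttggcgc
Tcf3, chr10:80433586-80433885, minus strand: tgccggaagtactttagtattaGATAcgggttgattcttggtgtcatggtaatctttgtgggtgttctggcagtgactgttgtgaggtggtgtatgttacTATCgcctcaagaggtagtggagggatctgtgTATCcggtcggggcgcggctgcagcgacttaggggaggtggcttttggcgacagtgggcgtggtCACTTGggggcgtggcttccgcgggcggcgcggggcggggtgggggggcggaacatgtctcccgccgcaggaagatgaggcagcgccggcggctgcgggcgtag
Cbfa2t3, chr8:122699060-122699359, minus strand: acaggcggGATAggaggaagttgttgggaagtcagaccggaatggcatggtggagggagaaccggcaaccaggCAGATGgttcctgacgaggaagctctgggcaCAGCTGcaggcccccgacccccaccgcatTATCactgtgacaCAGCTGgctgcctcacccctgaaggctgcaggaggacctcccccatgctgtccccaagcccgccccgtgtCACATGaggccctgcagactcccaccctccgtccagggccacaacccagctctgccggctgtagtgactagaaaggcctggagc

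The window of Tal1 shown held 4 GATA matches, counting overlapping matches and both strands, and 1 E-box, whereas the window of its other start held 0 of either. The Lyl1 window held 1 E-box, 0 GATA matches, 6 matches to the ETS core (GGAA, either strand) and 2 to a RUNX motif (TGNGGT, either strand). The Tcf3 window held 3 GATA matches and 1 E-box. The Cbfa2t3 window shown held 4 E-boxes and 2 GATA matches, and that of its other start 1 and 0. Such short motifs are common. Of the 16 windows, 56.2% held an E-box, against 72.3% of all 32851 windows of this length. A GATA match was in 43.8% against 57.9%, an ETS core in all 16 windows against 96.0%, and a RUNX motif in 56.2% against 45.8%. Matches describe the letters only and say nothing of binding.

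Total RNA was amplified in 2 rounds before hybridization to 1 array per sample, and values are deposited on the log2 scale. Array medians lay between 4.33 and 4.39. LRC replicate 1 had the lowest correlations with the other arrays, at 0.901 to 0.919 (Pearson, across probe sets). Control transcripts added for hybridization had mean log2 values of 11.24 and 11.02 on LRC replicates 1 and 3 and of 10.58 to 10.70 on the other 4 arrays. With this level as a covariate the difference of Tal1 was 0.65 and that of Lyl1 -0.14, and the sign of the difference turned in Gata2 (0.17), Runx1 (0.40) and Cbfa2t3 (-0.08). Among LRC arrays only replicate 2 had a level like the non-LRC arrays, so covariate and group cannot be fully told apart. Kit, positive in the gate, had log2 means of 9.07 in LRC and 9.05 in non-LRC, and Cd48, negative in the gate, at 2.34 to 3.27. Cd34, also negative in the gate, was above the array median on 5 of 6 arrays (5.10 to 7.43) and at 2.52 on LRC replicate 1, and Slamf1, which encodes CD150, ranged from 6.24 to 8.83. Levels are not compared between genes, because probe sets differ in how brightly they report a transcript.

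No factor of the group passed the test between LRC and non-LRC. Limma, adjusted over all 45037 probe sets, called 0 of the 23 probe sets (smallest adjusted p = 0.998), where 0% of all probe sets were called. At an unadjusted p under 0.05 there were 2, against 3.71% of all probe sets (3.75% of genes by their probe set of highest mean, 0% of genes after adjustment). The groups did not overlap in 3 of 23, which is 13.0%, against 8.28% of all probe sets and 8.32% of genes. Of these, 2 were higher in LRC (background 4.88%) and 1 was lower (background 3.40%). Taking for each gene its probe set of highest mean, 4 of the 10 genes had a higher mean in LRC and 6 a lower one. The median difference, LRC minus non-LRC, was -0.05 (log2), against 0.03 over all genes.

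The spread of the factors was close to that over all genes, whatever their level. The factors' probe sets of highest mean lay at the 87.9th to 99.6th percentile of mean level, and genes of like level were not compared. The median difference in size of the factors was 0.15 (log2), against 0.20 over all genes, and their median SD within a group was 0.29, against 0.31. Intervals were read at each gene's probe set of highest mean. For 7 of the 10 genes the 95% interval of the difference from limma lay within a 2-fold change in either direction. The 3 exceptions at these probe sets were the bHLH genes Tal1, Lyl1 and Tcf3. Some of the less bright probe sets of Runx1 and Cbfa2t3 had intervals reaching beyond a 2-fold change, and others of these genes did not. In simulated arrays of the same comparison (45037 probe sets), a log2 change of 1, which is a 2-fold change, was recovered in 0% of cases at the adjusted threshold of 0.05.

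**Figure D1:**
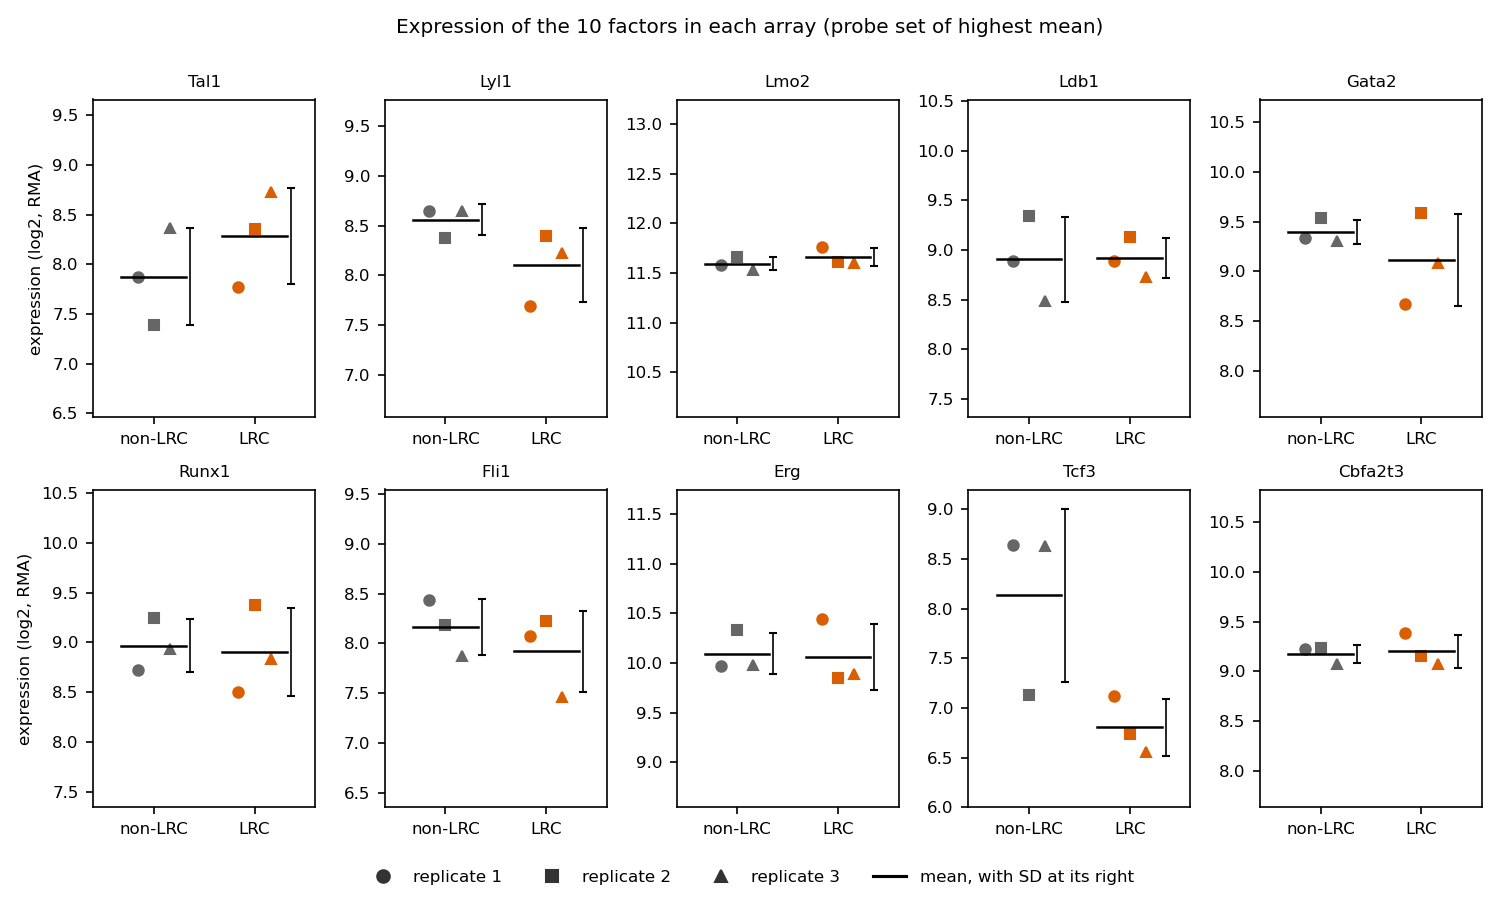
Log2 expression of each of the 10 genes (probe set of highest mean) in the 3 non-LRC arrays (grey) and the 3 LRC arrays (orange). Marker shapes give the replicate number, lines the group means and bars the SD; each panel spans the same number of log2 units, and the groups overlap in every gene but Tcf3, where they are 0.01 apart.

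Among the bHLH factors, Tal1, whose locus carries the transactivator, had 1 probe set (1449389_at). It was at 7.87, 7.39 and 8.37 in non-LRC replicates 1 to 3 and at 7.77, 8.36 and 8.73 in LRC replicates 1 to 3 (log2). The highest value was an LRC sample and the lowest a non-LRC sample, and the groups overlapped. The mean was 8.29 ± 0.49 in LRC samples and 7.87 ± 0.49 in non-LRC samples (SD, n = 3 each), 1.33-fold higher in LRC, with a difference of 0.41 (SE 0.36, 95% interval -0.45 to 1.27, limma adjusted p = 0.998). The difference was 0.67 without LRC replicate 1 and 0.66 without non-LRC replicate 3, but 0.19 without LRC replicate 3 and 0.17 without non-LRC replicate 2.

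Lyl1, the closest relative of Tal1 and able to stand in for it in adult HSCs, differed in the other direction. Its probe set (1419120_at) was at 8.65, 8.38 and 8.65 in the non-LRC samples and at 7.69, 8.40 and 8.22 in LRC. LRC replicates 1 and 3 lay below all non-LRC samples, and LRC replicate 2 lay just above non-LRC replicate 2. The means were 8.11 ± 0.37 in LRC samples and 8.56 ± 0.15 in non-LRC (SD, n = 3 each), 1.37-fold lower in LRC (difference -0.45, SE 0.25, 95% interval -1.05 to 0.14, limma adjusted p = 0.998). Both LRC samples below the non-LRC range were those with bright hybridization controls. Without LRC replicate 1 the difference was -0.25, and when LRC replicate 3 was left out as well it was -0.16.

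Tcf3 encodes the E proteins E12 and E47, the dimer partners of Tal1, and had the largest difference of the group at 1 of its 3 probe sets. That probe set (1427764_a_at, whose suffix marks probes matching several transcripts of a gene) was at 8.64, 7.13 and 8.63 in the non-LRC samples and at 7.12, 6.74 and 6.56 in LRC. The groups did not overlap, but non-LRC replicate 2 lay only 0.01 above LRC replicate 1, and after centring each array on its median the groups overlapped by 0.01 (gap -0.01). The means were 6.80 ± 0.28 in LRC samples and 8.13 ± 0.87 in non-LRC (SD, n = 3 each), 2.51-fold lower in LRC (difference -1.33, SE 0.45, 95% interval -2.42 to -0.24). The unadjusted p was 0.0243 and the limma adjusted p 0.998.

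The other Tcf3 probe sets did not show this difference. Probe set 1452542_x_at was annotated with the same source sequence, and its suffix marks probes that may also match other sequences. It was at 6.47, 6.34 and 6.43 in the non-LRC samples and at 6.78, 6.17 and 6.47 in LRC, a difference of 0.06 (95% interval -0.46 to 0.58). Probe set 1426297_at was at 4.03, 6.98 and 6.59 in the non-LRC samples and at 5.95, 7.65 and 5.68 in LRC, with the widest range of all 23 probe sets, 3.62 on the log2 scale. Its difference was 0.56 (95% interval -1.61 to 2.73). Averaged over its 3 probe sets, Tcf3 differed by -0.24.

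**Figure D2:**
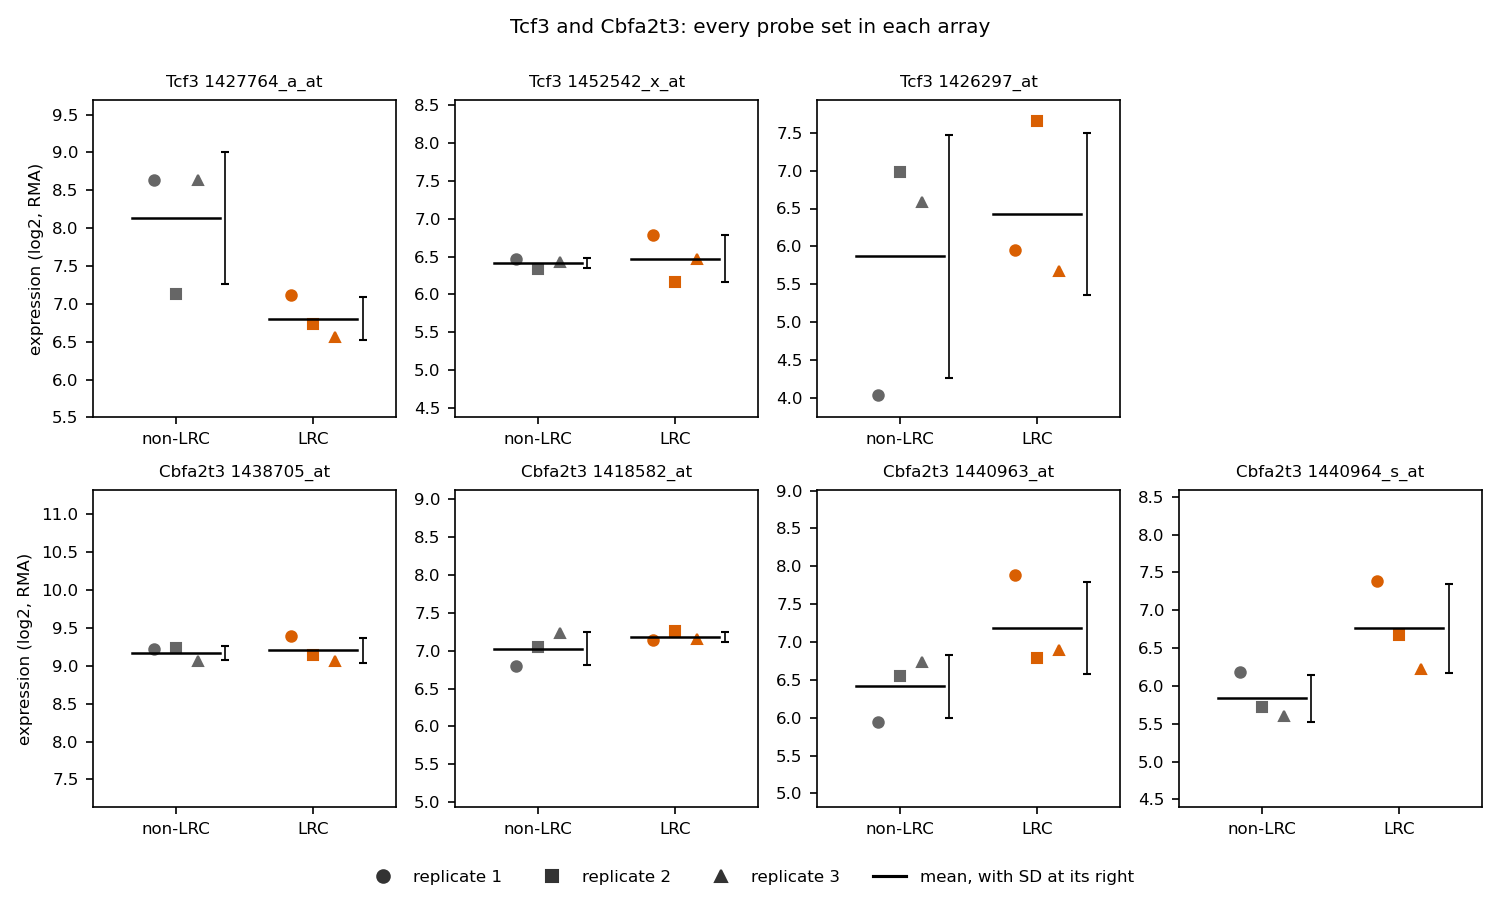
Log2 expression at every probe set of Tcf3 (top, 3 probe sets) and Cbfa2t3 (bottom, 4 probe sets) in each non-LRC (grey) and LRC (orange) array, with group means and SD. The first Tcf3 panel shows all LRC samples at 6.56 to 7.12 under non-LRC samples at 7.13 to 8.64, which the other 2 panels do not share; the last 2 Cbfa2t3 panels show LRC above non-LRC.

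The LIM adaptors had differences close to 0. Lmo2, which bridges the bHLH dimer to Ldb1 and Gata2, was at 11.58, 11.66 and 11.53 in the non-LRC samples and at 11.76, 11.61 and 11.60 in LRC (probe set 1454086_a_at). These samples spanned 0.23 on the log2 scale, the smallest range of the 23 probe sets, and the groups overlapped. The difference of 0.07 (SE 0.17) had a 95% interval of -0.34 to 0.48. Ldb1, the adaptor that self-associates and is known from erythroid cells to bring distant enhancers to promoters, was at 8.89, 9.34 and 8.49 in the non-LRC samples and at 8.89, 9.13 and 8.73 in LRC (1452024_a_at). All 3 LRC samples lay within the non-LRC range. The difference was 0.02 (SE 0.27, 95% interval -0.64 to 0.67).

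Gata2, the GATA factor that maintains stem and progenitor cells, had a lower mean in LRC at both probe sets. The brighter (1428816_a_at) was at 9.34, 9.54 and 9.31 in the non-LRC samples and at 8.67, 9.59 and 9.08 in LRC. LRC replicates 1 and 3 lay below the non-LRC range and LRC replicate 2 above it, so the LRC samples spread on both sides. The difference was -0.28 (SE 0.27, 95% interval -0.94 to 0.37), with -0.06 without LRC replicate 1 and -0.52 without LRC replicate 2. The direction turned to 0.17 when the hybridization controls were a covariate and to 0.19 with LRC replicate 2 as the one LRC sample. The second probe set (1450333_a_at) was at 8.16, 8.46 and 8.39 against 8.04, 8.48 and 7.95, in the same order of groups, with a difference of -0.18 (95% interval -0.71 to 0.35).

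Runx1, the DNA-binding subunit of core binding factor, had 6 probe sets, of which 3 had a higher and 3 a lower mean in LRC. The brightest (1422864_at) was at 8.72, 9.25 and 8.93 in the non-LRC samples and at 8.50, 9.38 and 8.83 in LRC. The LRC samples held both the lowest and the highest value. The difference was -0.06 (SE 0.29, 95% interval -0.76 to 0.63). A second probe set annotated with the same source sequence (1422865_at) had nearly the same order of samples. It ran from 7.77 on LRC replicate 1 to 9.28 on LRC replicate 2 and 9.33 on non-LRC replicate 2.

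The probe set of Runx1 with the largest difference was 1452530_a_at, at 5.78, 6.56 and 5.61 in the non-LRC samples and at 7.99, 6.88 and 6.04 in LRC. LRC replicate 1 was more than 1 log2 unit above any other sample, and LRC replicate 3 lay within the non-LRC range. The difference was 0.99 (SE 0.53, 95% interval -0.29 to 2.27, limma adjusted p = 0.998), or 0.48 without LRC replicate 1. The probe set annotated with the same source sequence, 1452531_at, differed by -0.09 and ranged from 6.02 to 6.47. The remaining Runx1 probe sets, 1427650_a_at and 1440878_at, differed by 0.18 and 0.36, with intervals that included 0.

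Of the ETS factors, Fli1 was at 8.44, 8.19 and 7.87 in the non-LRC samples and at 8.08, 8.23 and 7.46 in LRC (1422024_at). The groups overlapped and LRC replicate 3 was lowest. The difference was -0.24 (SE 0.28, 95% interval -0.92 to 0.44), or -0.01 without that sample, and the other Fli1 probe set (1433512_at, 7.12 to 7.67) differed by -0.10. Erg, which is required to maintain HSCs, was at 9.97, 10.33 and 9.98 in the non-LRC samples and at 10.44, 9.85 and 9.89 in LRC (1440244_at). LRC replicate 1 was the highest sample and the other 2 LRC samples the lowest. The difference was -0.03 (SE 0.24, 95% interval -0.62 to 0.55). At the other Erg probe set (1425370_a_at) LRC replicate 1 was instead the lowest, at 8.37, against 9.02 and 9.05 in the other LRC samples and 9.01 to 9.41 in non-LRC. That probe set differed by -0.37 (95% interval -0.99 to 0.25).

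The corepressor gene Cbfa2t3 had a higher mean in LRC at all 4 probe sets, but by very different amounts. At the brightest (1438705_at) the values were 9.22, 9.23 and 9.07 in non-LRC and 9.39, 9.15 and 9.07 in LRC, a difference of 0.03 (SE 0.18, 95% interval -0.41 to 0.47). The groups overlapped there, as they did at 1418582_at, which ranged from 6.80 to 7.26 and differed by 0.16. At the other pair, which were annotated with the same source sequence and so may not measure independently, the groups did not overlap. Probe set 1440963_at was at 5.95, 6.55 and 6.74 in the non-LRC samples and at 7.88, 6.79 and 6.89 in LRC, 1.71-fold higher in LRC (difference 0.78, SE 0.37, unadjusted p = 0.0798, limma adjusted p = 0.998).

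Probe set 1440964_s_at of Cbfa2t3 was at 6.19, 5.72 and 5.60 in the non-LRC samples and at 7.39, 6.67 and 6.22 in LRC. The means were 6.76 ± 0.59 in LRC samples and 5.83 ± 0.31 in non-LRC (SD, n = 3 each), 1.90-fold higher in LRC (difference 0.92, SE 0.35, 95% interval 0.09 to 1.76). The unadjusted p was 0.0352 and the limma adjusted p 0.998. In both of this pair LRC replicate 1 was the highest sample, and without it the differences were 0.43 and 0.61. The groups were separated by 0.052 at the first and 0.036 at the second, and at the second they overlapped after median centring (gap -0.007).

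**Figure D3:**
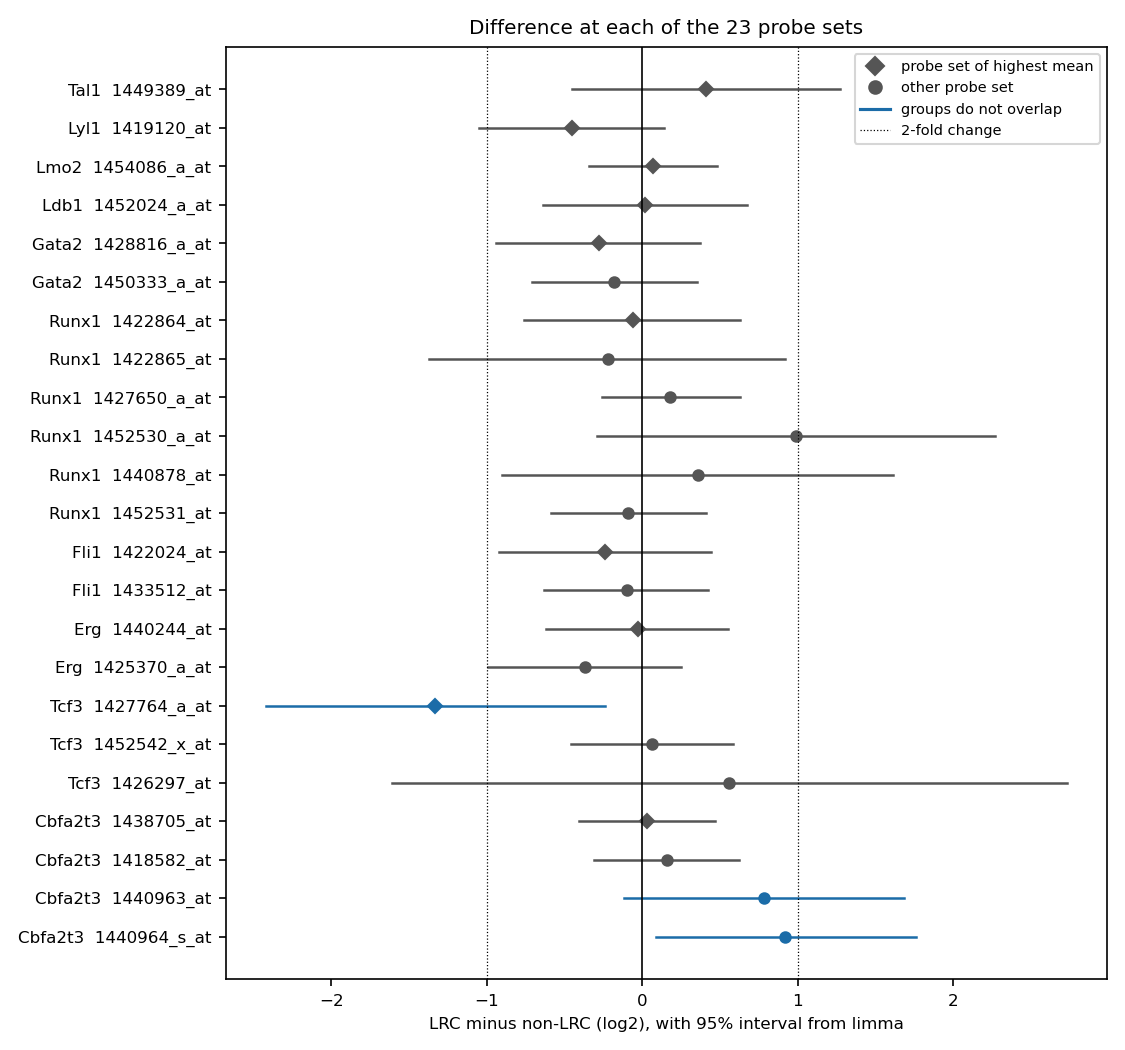
Difference between LRC and non-LRC (log2) at each of the 23 probe sets, with the 95% interval from limma; diamonds mark the probe set of highest mean of each gene, blue the 3 probe sets whose groups do not overlap, and dotted lines a 2-fold change. Of the 23 intervals, 14 lie within the dotted lines, and no probe set passed the adjusted threshold.

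The highest and lowest values of the 23 probe sets were counted per array. The same counts over all probe sets were not made, so these describe the 23 only. Of the 23 probe sets, LRC replicate 1 gave the highest value at 9 and the lowest at 5. LRC replicate 2 gave the highest at 7 and the lowest at 2, whereas LRC replicate 3 gave the lowest at 6 and the highest at 1. Each non-LRC array gave the highest value at 1 to 3 probe sets, and non-LRC replicates 1 to 3 gave the lowest at 5, 1 and 4. Of the 6 genes with several probe sets, Runx1 and Tcf3 had probe sets of opposite sign.

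Genes that work with the complex were compared from a list of 30 related factors and cofactors, of which 28 were measured. Of these, 0 passed the adjusted threshold, 12 had a higher mean in LRC and 16 a lower one. Their median difference was -0.10, or -0.03 without LRC replicate 1, against 0.03 and -0.01 over all genes. The groups did not overlap in 3 (10.7%, against 8.32% of all genes), and 1 had an unadjusted p under 0.05 (3.6%, against 3.75%), both shares near those of all genes. The latter gene was Ssbp3, a single-stranded DNA-binding protein that associates with Ldb1, at 8.50, 8.15 and 8.46 in the non-LRC samples and at 8.70, 9.14 and 8.92 in LRC. All LRC samples of Ssbp3 lay above all non-LRC samples, its difference was 0.55 (SE 0.21, 95% interval 0.04 to 1.06, unadjusted p = 0.0380, limma adjusted p = 0.998), and its other probe set had the same sign.

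Hdac1, a histone deacetylase of corepressor complexes, was at 8.50, 8.51 and 8.37 in the non-LRC samples and at 8.07, 8.22 and 7.60 in LRC. All LRC samples were lower, with a difference of -0.50 (SE 0.22, limma adjusted p = 0.998). Gfi1, a repressor that restrains HSC division and acts downstream of the group, was at 7.69, 6.11 and 7.32 against 8.95, 7.39 and 8.27, with overlapping groups and a difference of 1.16 (SE 0.55), or 0.78 without LRC replicate 1. Ldb2, a relative of Ldb1, was at 2.71, 5.20 and 4.11 in the non-LRC samples and at 2.74 to 2.83 in LRC, a difference of -1.22 (SE 0.60) that neither of its other probe sets shared in sign. Gata1, which takes the place of Gata2 in the complex of erythroid cells, was at 2.42 to 3.53 on all arrays, below the array medians.

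The Id proteins, which hold E proteins in dimers that cannot bind DNA, were all measured, and 0 of 4 passed. Id1 differed by 0.19 (SE 0.20), Id2 by -0.23 (SE 0.50), Id3 by -0.01 (SE 0.22) and Id4 by -0.27 (SE 0.70). Id4 ranged in both groups by more than the groups differed, from 4.63 to 6.55 in non-LRC and from 4.18 to 6.44 in LRC. The median difference of the 4 genes was -0.12, and 0.11 without LRC replicate 1.

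Of 20 genes listed as known targets of the factors, 18 were measured and 0 passed; 8 had a higher and 10 a lower mean in LRC, with a median difference of -0.19, or -0.05 without LRC replicate 1. Adgrg1, an adhesion receptor of HSCs, was at 9.60, 9.57 and 9.71 in the non-LRC samples and at 9.82, 10.20 and 9.83 in LRC. It was the 1 target whose groups did not overlap (5.6%, against 8.32% of all genes). Its difference was 0.32 (SE 0.19, limma adjusted p = 0.998), with the same sign at its other probe set. Epor, the erythropoietin receptor, differed by -0.75 (SE 0.44), Tek, the receptor of angiopoietins, by -1.49 (SE 0.94; -0.81 without LRC replicate 1), and Sla2, an adaptor that dampens receptor signalling, by -0.36 (SE 0.23, with its 1 other probe set of opposite sign). Tek was at 5.77, 7.52 and 6.83 in the non-LRC samples and at 3.85, 7.26 and 4.53 in LRC, low on the same 2 LRC arrays as Lyl1 and the brighter Gata2 probe set. Kit, a target of the complex as well as a gate marker, differed by 0.03 (SE 0.17).

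Markers of other blood and vessel cells that use these factors did not pass either, with 0 called in each of the lists. In bulk samples a lower value cannot be told apart from fewer cells of a type. Summed over a list as its mean per array, the 9 erythroid markers measured were at 3.91 to 4.51 in LRC and 3.93 to 5.09 in non-LRC, and the 8 megakaryocyte markers at 5.44 to 5.77 and 5.60 to 6.45. The 7 mast cell and basophil markers were at 2.90 to 3.66 and 3.12 to 3.24, the 8 endothelial markers at 5.32 to 5.84 and 5.60 to 6.08, and the 9 myeloid and lymphoid markers at 3.96 to 4.62 and 4.32 to 4.68. The share of these markers at or above the 40th percentile of mean level was 5 of 9 erythroid, 6 of 8 megakaryocyte, 2 of 7 mast cell and basophil, 6 of 8 endothelial and 3 of 9 myeloid and lymphoid genes. No marker was at 0, since these log2 values have a floor above it. Among erythroid genes the globin gene Hba-a1 was under the array medians at 2.86 to 3.30, while the transferrin receptor gene Tfrc was at 7.09 to 9.08. Car1 was at 7.34 on non-LRC replicate 1 and at 3.08 to 3.98 on the other arrays. Klf1 was at 6.76 on non-LRC replicate 1, at 6.21 on LRC replicate 1 and at 2.93 to 4.24 on the others. Among megakaryocyte genes Ppbp was at 1.87 to 2.46, under the array medians, while Pf4 was at 5.62 to 7.75 and Itgb3 at 7.68 to 8.89. Their part in the values of the factors was not tested.

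The largest of these marker differences was that of Vwf, shared by the megakaryocyte and endothelial lists and also expressed in HSCs. It was at 8.40, 8.97 and 9.16 in the non-LRC samples and at 6.38, 8.83 and 7.71 in the LRC samples. The groups overlapped, and the difference was -1.20 (SE 0.61), or -0.57 without LRC replicate 1. Of the other megakaryocyte genes, Itga2b differed by -0.36 (SE 0.24) and Gp9 by -0.28 (SE 0.28). Ppbp differed by 0.36 (SE 0.19), with separate groups near the floor, the 1 such gene of 8 (12.5%, against 8.32% of all genes). Of the erythroid genes, Epb42 differed by 0.22 (SE 0.29) and Gata1 by -0.25 (SE 0.32). Hba-a1 differed by 0.29 (SE 0.17), again with separate groups at low level, the 1 such gene of 9 (11.1%, against 8.32%). Mcpt8 of basophils differed by 0.88 (SE 0.60), and the mast cell genes Tpsab1, Hdc and Cma1 by 0.33, 0.28 and -0.12. Emcn of endothelium differed by -0.96 (SE 0.68), and Plvap and Cdh5 by -0.23 and 0.22. Itgam, Il7r and Elane of myeloid and lymphoid cells differed by 0.23, 0.24 and -0.41, and Lyz2 by -0.46 (SE 0.52), or 0.14 without LRC replicate 1. Mpo of myeloid progenitors differed by -1.07 (SE 1.36), or 0.57 without LRC replicate 1, where it was at 4.03.

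Among 8 genes of the HSC gate and of HSCs, 5 had a higher mean in LRC and 3 a lower one, with 0 called and a median difference of 0.17. Hlf, a factor of long-term HSCs, was at 11.02, 11.07 and 10.70 in the non-LRC samples and at 11.54, 11.17 and 11.20 in the LRC samples. The LRC samples of Hlf all lay above the non-LRC samples, with a difference of 0.38 (SE 0.21, limma adjusted p = 0.998). Hlf was the 1 gene of the 8 whose groups did not overlap (12.5%, against 8.32% of all genes). Mecom, another such factor, differed by 0.33 (SE 0.22) with all 3 of its probe sets of the same sign, and Fgd5, a marker of HSCs, by 0.40 (SE 0.25). Slamf1, positive in the gate, was among the 3 with a lower mean. It differed by -0.37 (SE 0.69), or 0.31 without LRC replicate 1. Cd34 differed by -1.69 (SE 1.12), or -0.52 without LRC replicate 1.

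**Figure D4:**
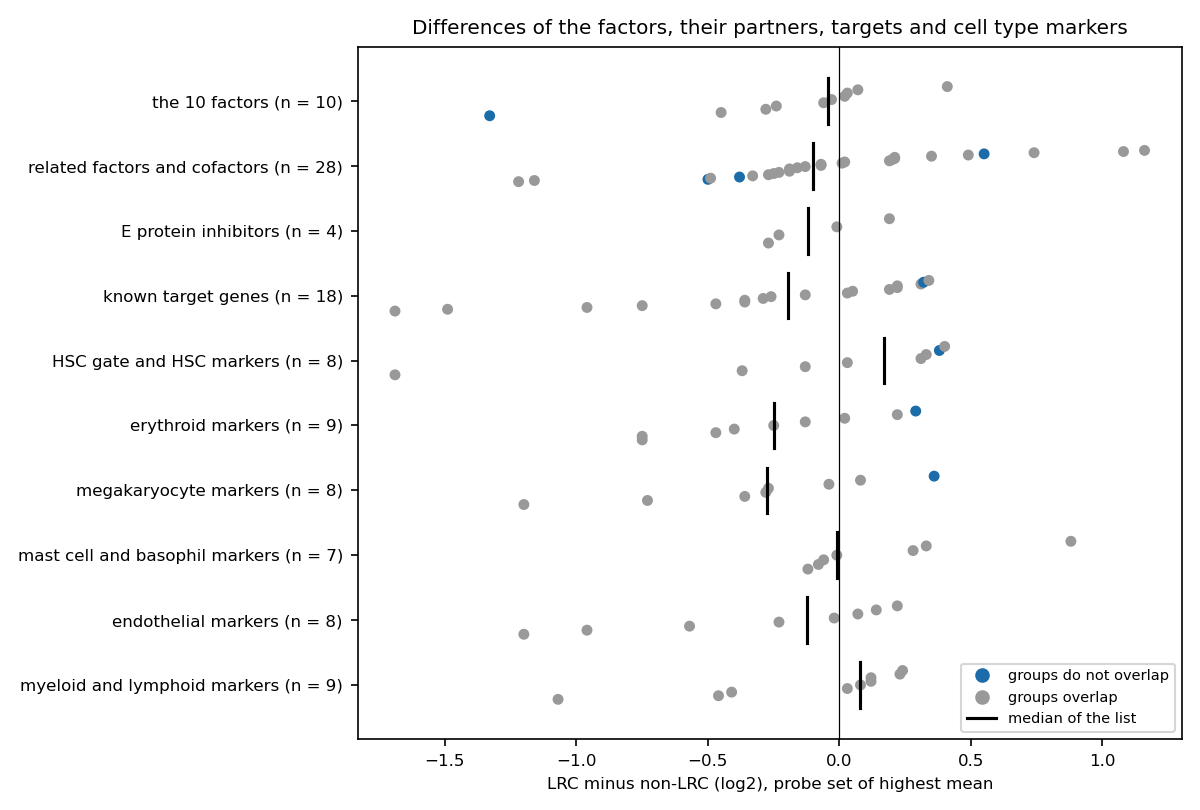
Difference between LRC and non-LRC (log2, probe set of highest mean) for each measured gene of the 10 factors and of the lists of partners, inhibitors, targets and cell type markers; blue points mark genes whose groups do not overlap and black bars the list medians. List medians run from -0.27 for megakaryocyte markers to 0.17 for HSC markers, and no gene passed the adjusted threshold.

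The profile of Tal1 over the 6 arrays was set beside that of other genes. Likeness was the mean absolute distance between log2 values centred on each gene's own mean, over 12445 genes at or above the 40th percentile of mean level. The nearest 5 were Pag1 (distance 0.049), Zfp954 (0.055), Tmem67 (0.10), Dyrk3 (0.101) and Xab2 (0.135), where the median distance was 0.52. Pag1, a membrane adaptor of Src-family kinases, was at 6.42, 5.94 and 6.97 in the non-LRC samples and at 6.47, 6.99 and 7.40 in LRC. These 5 are the smallest of 12445 distances over only 6 arrays. The other 9 factors were farther from Tal1 than these 5, at distances from 0.39 for Runx1 to 0.87 for Tcf3, on both sides of the median of 0.52.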

How the data were processed

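Expression was measured on 6 arrays, 3 LRC and 3 non-LRC. The authors deposited log2 values made with RMA, per the submitters' processing notes, without a version; the base of the logarithm was inferred from how far the values reach. RMA quantile-normalizes the arrays, which hides any change in RNA content per cell. There is no sequencing depth, and the number of arrays limits the precision. GEO's labels call the samples of a group independent biological replicates.

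Of 45101 probe sets, 64 controls were left out and 45037 tested; 34945 named 1 gene, 932 several and 9160 none. Symbols came from the platform's annotation and were updated through gene identifiers to RefSeq (GRCm38.p6). LRC was set against non-LRC with lmFit and eBayes of limma 3.58.1 (R 4.3.3) without covariates, with Benjamini-Hochberg adjustment over all probe sets and a threshold of 0.05. Errors of differences are moderated standard errors. A gene was represented in lists by its probe set of highest mean. No set test was made. Simulated arrays of this comparison held 45037 probe sets, 50 of them changed at each size. Recovery was 0% for a log2 change of 1, 44% for 2, 64% for 3 and 82% for 4, and there were 3 false calls.

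The members and lists were chosen with earlier results of these data known. Named were all members with every probe set and up to 4 genes of smallest p per other list. Kit, Slamf1, Cd34 and Cd48, and the 5 genes nearest to Tal1, were named too. Crebbp, Mpo, Tfrc, Car1, Klf1, Pf4 and Itgb3 were added after their values were seen. Listed genes with no probe set naming them alone are not analysed here. Alternatives were the replicate block, array weights, trended and robust moderation, a further quantile normalization, centring on the median, a filter at the 40th percentile of mean level, the hybridization control level as a covariate, leaving out arrays, other thresholds and the mean of a gene's probe sets.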

Additional observations from a re-analysis of the deposited data

How the results depend on the processing

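Limma called 0 probe sets, and 0 of the 23 member probe sets, under every alternative fit, with an adjusted p under 0.1 too; at an unadjusted p under 0.05 there were 2 member probe sets. The median difference of the 10 genes stayed between -0.20 and 0.07. Of 150 differences recomputed for single genes, 130 kept their direction, including all of Tal1 (0.17 to 0.67), Lyl1 (-0.60 to -0.14), Lmo2 and Tcf3 (-1.83 to -0.24). The others turned: with array weights Ldb1 (-0.01) and Cbfa2t3 (-0.01); with quantile normalization Erg (0.01); with the level of the hybridization controls as covariate Gata2 (0.17), Runx1 (0.40) and Cbfa2t3 (-0.08); without LRC replicates 1 and 3, where LRC replicate 2 alone is assumed to vary like the non-LRC arrays, Gata2 (0.19), Runx1 (0.41), Fli1 (0.06) and Cbfa2t3 (-0.02); and with the mean of all probe sets Runx1 (0.19). When single arrays were left out, Ldb1 ranged from -0.19 to 0.23, Runx1 from -0.30 to 0.14, Erg from -0.22 to 0.09 and Cbfa2t3 from -0.06 to 0.10. Member probe sets whose groups did not overlap numbered 3; they numbered 4 to 6 without single arrays (17.4% to 26.1%, against 15.9% to 25.4% of all probe sets), 14 with LRC replicate 2 alone (60.9% against 47.2%) and 2 after median centring (8.7% against 8.0%). Same-numbered LRC and non-LRC arrays had deviations correlated at 0.08, 0.14 and 0.08, each sample's highest value. The other combinations ran from -0.09 to -0.01, so a pairing by number is not excluded. The labels call the replicates independent and name no pairing, and the main fit therefore did not pair them. With the replicate block 0 probe sets were called and Tal1 still differed by 0.41. In the simulated arrays, where 50 of 45037 probe sets were changed at each size, 0% of 2-fold changes were called. The absence of calls here thus does not exclude changes of that size.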

Other observations

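Crebbp, a histone acetyltransferase that serves as coactivator, was at 10.23, 9.89 and 9.74 in the non-LRC samples and at 9.68, 9.47 and 9.55 in LRC, with all LRC samples lower and 2 of its 3 other probe sets agreeing in sign (difference -0.38, SE 0.20, limma adjusted p = 0.998). It was named after its values were seen.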
